A study of Mus musculus with 2 samples.

Results

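A set of 8 genes of TGF-beta and activin signaling, out of 32285 features in the count tables, was described across the cell classes of MC38 tumors with and without the STING agonist MSA-2. They were picked by gene symbol and not by any measured value. The set holds the 3 TGF-beta ligands (Tgfb1, Tgfb2 and Tgfb3), the activin subunit gene Inhba, the receptors Tgfbr1 and Tgfbr2, the pathway inhibitor Smad7 and the target gene Tgfbi. All 8 were counted in both libraries.

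TGF-beta ligands are secreted in a latent form, and once released they bind the type II receptor Tgfbr2, which recruits and phosphorylates the type I receptor Tgfbr1. Tgfbr1 in turn phosphorylates Smad2 and Smad3, and these enter the nucleus with Smad4, while Smad7 is induced by the pathway and blocks the receptor. Inhba encodes the subunit of activin A, which signals through other receptors to the same Smads. In tumors the pathway is known for restraining T cells and NK cells and for driving fibroblasts to a contractile, matrix-producing state.

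MC38 is a mouse colon carcinoma line, and MSA-2 is a small molecule that activates STING, an adaptor protein that triggers the type I interferon response. Tumors grown under the skin of C57BL/6 mice aged 6 to 8 weeks were injected directly 3 times at intervals of 3 days and collected on day 7. The library labelled untreated comes from tumors that, per the series record, received the vehicle (saline with 10% DMSO), and the other comes from MSA-2-treated tumors. Each library pools tumors of 3 mice, so there is 1 library per condition and the effect of MSA-2 cannot be told apart from any other difference between the libraries. The study used mice of both sexes for this model, the sex of the pooled mice is not given, and the marker used to sort the cells is not stated. No test between conditions was possible, and all intervals in parentheses are exact 95% intervals that cover counting error only.

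The upstream sequences of 4 members are shown because their patterns over the cell classes differed. Untreated Tgfb1 levels were highest in NK-like, monocyte-like and T-like cells. Tgfb2 had its highest level in fibroblast-like cells, Inhba in the most abundant class and Tgfbi in myeloid cells. The sequences are from RefSeq on build GRCm38.p6, read 5′ to 3′ on the strand of the gene and ending at the base before the annotated start of the gene. Capitals mark matches, on either strand, to the letters of 6 motifs: the ISRE core of interferon-response elements, the AP-1 site TGANTCA, the SMAD-associated CAGACA, the NF-kB-type GGGNNTTCC, the SP1-type GGGCGG and the TATA box TATAAA.
Tgfb1, chr7:25686752-25687001, plus strand: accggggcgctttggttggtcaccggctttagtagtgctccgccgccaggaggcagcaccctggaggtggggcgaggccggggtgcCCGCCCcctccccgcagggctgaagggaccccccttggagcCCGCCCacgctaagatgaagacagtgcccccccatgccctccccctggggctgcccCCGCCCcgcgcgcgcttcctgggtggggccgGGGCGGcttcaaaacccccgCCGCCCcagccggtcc
Tgfb2, chr1:186705990-186706239, minus strand: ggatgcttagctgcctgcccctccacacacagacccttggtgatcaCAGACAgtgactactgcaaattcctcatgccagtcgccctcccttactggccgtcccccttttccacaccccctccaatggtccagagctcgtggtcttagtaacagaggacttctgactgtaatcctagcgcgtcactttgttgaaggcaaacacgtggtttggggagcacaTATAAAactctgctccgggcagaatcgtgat
Inhba, chr13:16011601-16011850, plus strand: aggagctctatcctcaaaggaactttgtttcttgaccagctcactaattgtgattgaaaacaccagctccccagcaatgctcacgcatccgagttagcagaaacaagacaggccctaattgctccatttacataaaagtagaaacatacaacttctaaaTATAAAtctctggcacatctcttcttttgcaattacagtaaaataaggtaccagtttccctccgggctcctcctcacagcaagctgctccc
Tgfbi, chr13:56609336-56609522, plus strand: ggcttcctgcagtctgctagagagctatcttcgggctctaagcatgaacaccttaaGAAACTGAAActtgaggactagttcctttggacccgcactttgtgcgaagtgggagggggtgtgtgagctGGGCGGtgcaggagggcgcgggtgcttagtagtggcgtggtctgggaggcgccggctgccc

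The Tgfb1 window had a GC content of 75.2% and 5 matches to the SP1-type letters, a motif present in 32.7% of 32851 mouse promoters of the same table. That of Tgfb2 (GC 53.6%) held 1 CAGACA, found in 17.1% of promoters, and a TATAAA that begins 31 bases before the start, found in 12.4%. Inhba (GC 43.2%) had 1 TATAAA and no match to the other letters. The Tgfbi window is 187 bases long (GC 59.4%), since the rest of its entry lies inside the gene. It held 1 match to the ISRE core, which 2.98% of promoters hold, and 1 to the SP1-type letters. No window shown held the AP-1 letters (6.75% of promoters) or the NF-kB-type letters (4.98%). These matches are letters in a window, not measured binding sites. On GENCODE M21 the genes themselves span chr7:25687002-25705077 (Tgfb1, plus strand), chr1:186622792-186705989 (Tgfb2, minus), chr12:86056745-86079041 (Tgfb3, minus), chr4:47353222-47414931 (Tgfbr1, plus), chr9:116084293-116175360 (Tgfbr2, minus), chr13:56609523-56639562 (Tgfbi, plus) and chr13:16011851-16031621 (Inhba, plus). None of them overlaps another gene on its own strand.

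The libraries held 14386 untreated and 14617 MSA-2 barcodes with 198135335 and 204387165 unique molecular identifiers (UMIs). After filtering, 13334 and 13393 cells remained. Cells were assigned to classes by gates on marker genes that include none of the 8 members, and levels are in CPM (UMIs for each 1000000 UMIs of the class). The largest class was gated on Gng11 and Anxa1 and held 5977 untreated (44.8%) and 6620 MSA-2 cells (49.4%). The labels call the material tumor cells, but each of 8 epithelial markers, among them Epcam, Krt8 and Cdh1, was at or below 0.619 CPM in this class. It is therefore called by its leading gene, Gng11-high. The methods describe the barcodes as immune cells, while Ptprc, which encodes the pan-leukocyte protein CD45, was at 14.6 and 9.63 CPM in Gng11-high cells against 658 and 842 CPM in macrophage-like cells. Class sizes differed widely between the libraries. Macrophage-like cells numbered 3483 and 967, Ly6c2 monocyte-like cells 403 and 799, neutrophil-like cells 30 and 2453, T-like cells 1162 and 130, NK-like cells 194 and 106, fibroblast-like cells 229 and 665, and endothelial-like cells 61 and 77. Median depth was 21080 and 20722.5 UMIs in Gng11-high cells, 5669 and 5072 in macrophage-like cells, 3160.5 and 3925.5 in T-like cells and 1823 in the neutrophil-like cells of the MSA-2 library. Gng11-high, macrophage-like and Ly6c2 monocyte-like cells of the 2 libraries lay mostly in different clusters, so their ratios compare different clusters as well as different libraries. Clustering was not corrected for library, so cell state and library cannot be told apart in these ratios.

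Over all cells, 6 of the 8 members were lower in the MSA-2 library and 2 were higher. Tgfb1, Tgfb3, Tgfbr1 and Tgfbi were lower by a log2 ratio of at least 1, which was also the case for 7.6% of 17404 genes with at least 50 UMIs. None of the members was higher by that much, against 9.42% of genes. The member median was -0.92 and the median of all genes 0.01. Tgfbi went from 85.4 to 27.6 CPM (log2 ratio -1.63, -1.67 to -1.58), Tgfbr1 from 46.8 to 17.6 CPM (-1.41, -1.47 to -1.35), Tgfb3 from 46.5 to 17.7 CPM (-1.39, -1.45 to -1.33) and Tgfb1 from 54.4 to 23.5 CPM (-1.21, -1.26 to -1.16). Smaller differences were seen for Smad7, at 181 and 117 CPM (-0.63, -0.65 to -0.60), and Tgfbr2, at 96.3 and 68.7 CPM (-0.49, -0.52 to -0.45). Inhba was at 251 and 363 CPM (0.53, 0.52 to 0.55) and Tgfb2 at 12.02 and 14.1 CPM (0.23, 0.14 to 0.31).

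These sums mix the level within a class with the size of the class. With each class given its share of the untreated library, the log2 ratio was -0.94 for Tgfb1, -1.34 for Tgfb3, -1.12 for Tgfbr1, -0.36 for Tgfbr2, -0.59 for Smad7 and 0.45 for Inhba. For Tgfbi it was -0.65, against -1.63 without this weighting. Tgfb2 changed direction and stood at -0.75. With the levels held at their untreated values and only the class shares taken from the MSA-2 library, the ratio of Tgfb2 was 0.84. The same calculation gave -0.94 for Tgfbi and 0.09 for Tgfb3.

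**Figure D1:**
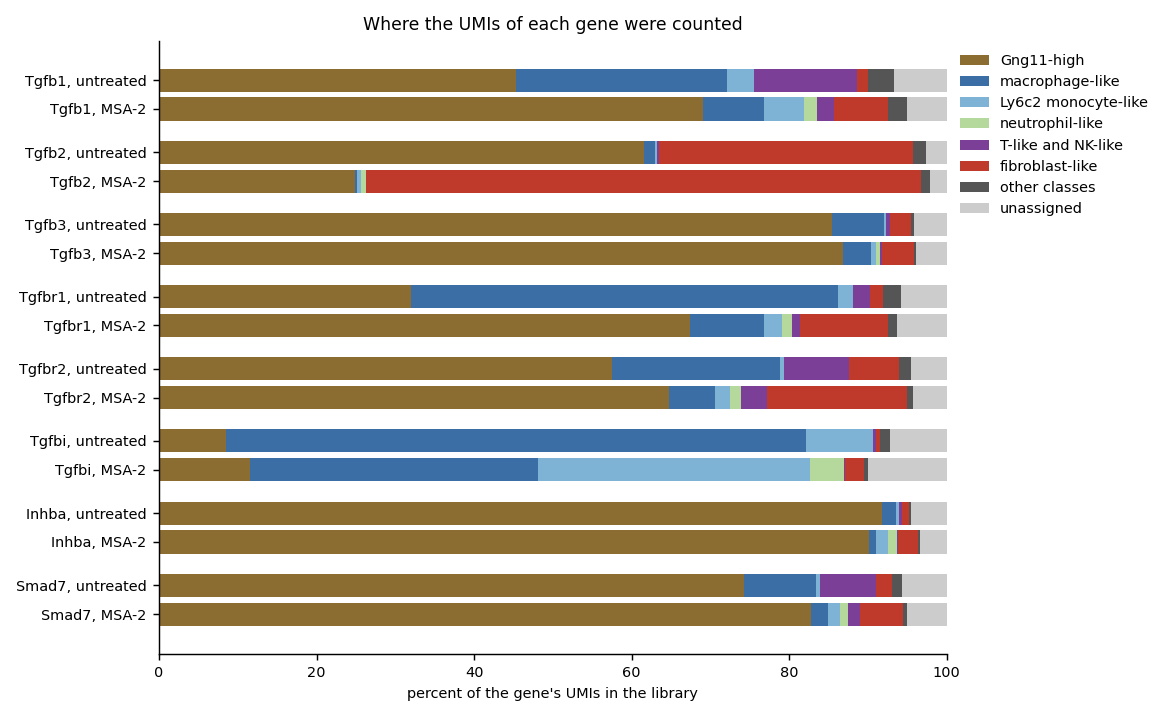
Percent of the UMIs of each gene counted in each cell class, in the untreated and the MSA-2 library, with colors for classes. Inhba and Tgfb3 UMIs lay mainly in Gng11-high cells in both libraries, while the largest share of Tgfb2 lay in Gng11-high cells in the untreated library (61.6%) and in fibroblast-like cells in the MSA-2 library (70.5%).

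Tgfb1 encodes the TGF-beta ligand that predominates in immune cells, and it was lower in the MSA-2 library in each of the 7 classes compared. In NK-like cells its level was 404 CPM (367 to 443) untreated and 75.0 CPM (57.0 to 97.0) with MSA-2, a log2 ratio of -2.43 (-2.85 to -2.03). T-like cells had 198 and 56.8 CPM (-1.80, -2.33 to -1.32) and Ly6c2 monocyte-like cells 227 and 76.0 CPM (-1.58, -1.83 to -1.33). Macrophage-like cells stood at 129 and 66.9 CPM (-0.95, -1.11 to -0.79), endothelial-like cells at 170 and 95.02 CPM (-0.84, -1.27 to -0.41), Gng11-high cells at 32.1 and 19.6 CPM (-0.71, -0.78 to -0.64) and fibroblast-like cells at 47.3 and 31.4 CPM (-0.59, -0.88 to -0.29). The order of the classes was steep in the untreated library, with NK-like cells apart from the next class. In the MSA-2 library it was flat among the 5 highest classes (endothelial-like, monocyte-like, NK-like, macrophage-like and T-like). None of these separated from the next of the 5 beyond counting error. Below them, fibroblast-like, Gng11-high and neutrophil-like cells were each apart from the class above. Neutrophil-like cells of the MSA-2 library had 15.6 CPM (12.3 to 19.5), the lowest of the 8 classes there. Of all Tgfb1 UMIs, Gng11-high cells held 45.3% untreated and 69.1% with MSA-2, and macrophage-like cells 26.8% and 7.77%.

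NK-like and T-like cells of both libraries fell into shared clusters, and the difference in Tgfb1 was as large inside them, at 410 and 75.0 CPM in the NK-like cluster (-2.45, -2.87 to -2.05) and 246 and 49.3 CPM in the main T-like cluster (-2.32, -2.99 to -1.72). CD8 T-like cells, 708 untreated and 82 with MSA-2, went from 208 to 51.2 CPM (-2.02, -2.67 to -1.43). When each cell was thinned to 1500 UMIs, the share of NK-like cells with a Tgfb1 UMI was 46.0% untreated and 9.62% with MSA-2 (78.4% and 38.7% without thinning). In T-like cells it was 23.1% and 7.32% (40.5% and 19.2% without thinning). Gng11-high cells showed 4.99% and 3.15% after thinning, and neutrophil-like cells of the MSA-2 library 2.09%. The part of RNA from other cells in the Gng11-high level was not tested. Thinning left out 5 and 2 NK-like, 50 and 7 T-like, and 3 and 8 Gng11-high cells as too shallow, and 632 neutrophil-like cells of the MSA-2 library. The 7 untreated clusters of Gng11-high cells ranged from 29.8 to 34.1 CPM and the 9 MSA-2 clusters from 17.3 to 20.9 CPM, so Tgfb1 was even across this class and the ranges did not overlap.

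**Figure D2:**
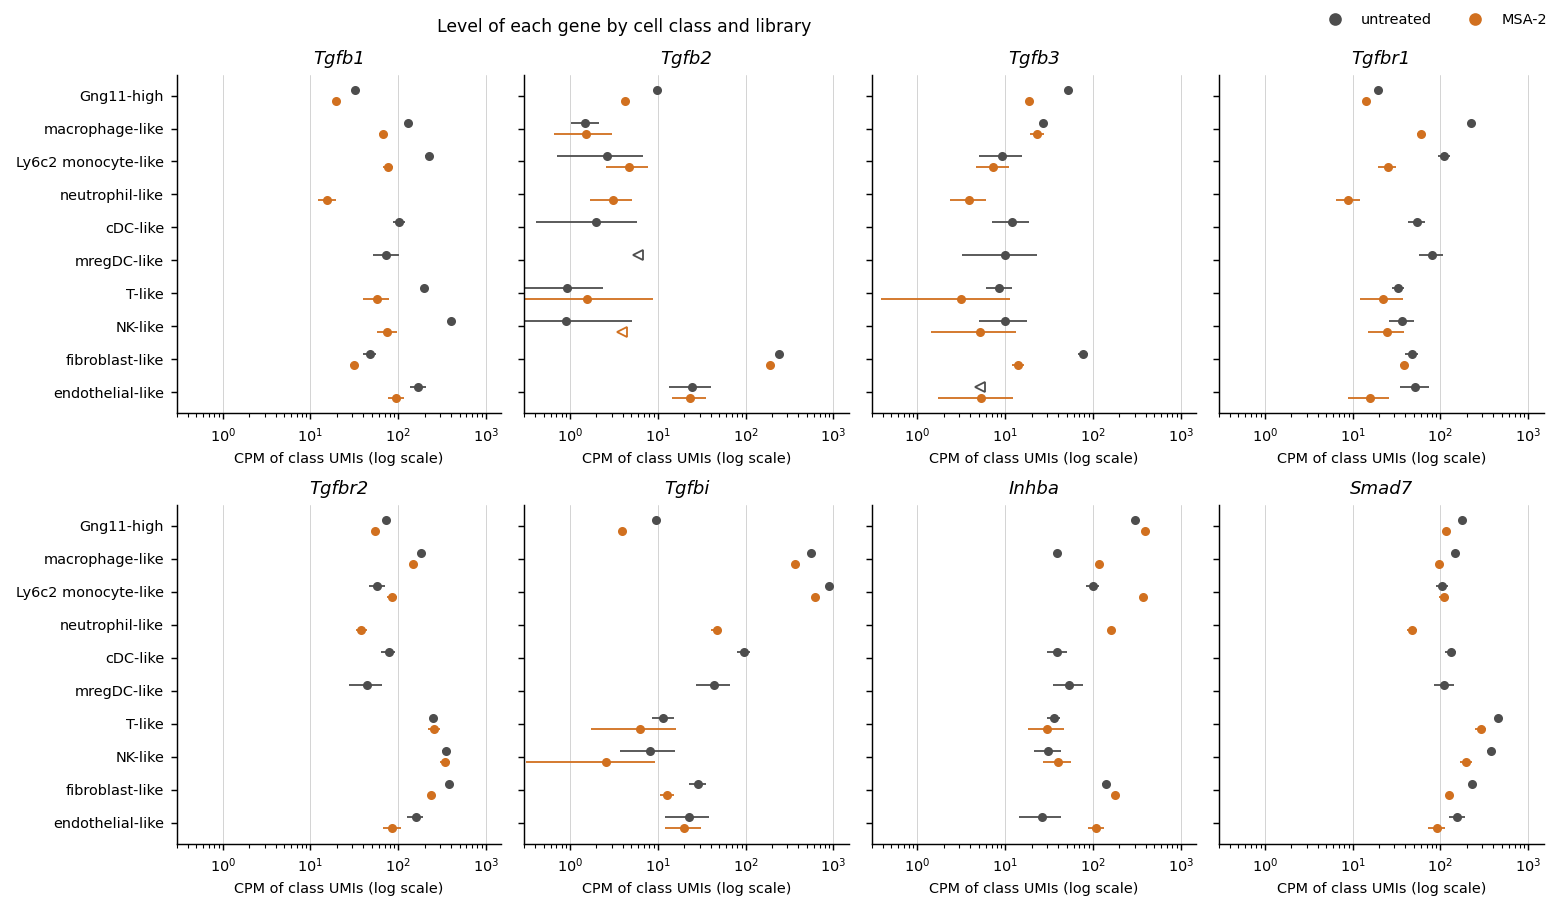
Level of each gene in CPM of class UMIs (log axis) in classes with at least 50 cells. Points are the untreated (grey) and MSA-2 (orange) libraries, bars are exact Poisson 95% intervals that cover counting error only, and open triangles mark the level that a count of 0 allows. In the Tgfb1 panel the untreated NK-like point lies at 404 CPM and the MSA-2 one at 75.0 CPM.

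Tgfb2, a ligand of mesenchymal and epithelial tissues, had its highest level in fibroblast-like cells, at 239 CPM (221 to 257) untreated and 191 CPM (182 to 200) with MSA-2. The log2 ratio was -0.32 (-0.45 to -0.19), and -0.064 with TMM scaling, a normalization that trims the genes with extreme ratios. Fibroblast-like cells held 32.3% of all Tgfb2 UMIs untreated and 70.5% with MSA-2, where they were also more numerous. Endothelial-like cells followed at 24.2 and 23.2 CPM, with an interval of the ratio (-1.09 to 1.02) that does not settle a direction. The small pericyte-like class lay between them, at 98.4 CPM (59.3 to 154) in 25 untreated cells and 67.6 CPM (29.2 to 133) in 15 MSA-2 cells. In Gng11-high cells Tgfb2 was at 9.66 and 4.23 CPM (-1.19, -1.33 to -1.06), above the 0.926 and 1.58 CPM of T-like cells, a class that should lack the gene. Per 100 UMIs of the collagen genes Col1a1, Col1a2 and Col3a1, Gng11-high cells had 0.729 and 0.475 Tgfb2 UMIs, fibroblast-like cells 0.656 and 0.874, and T-like cells 0.389 and 0.602 from 4 and 1 UMIs. Gng11-high cells carried more collagen UMIs than T-like cells, at 1326 and 890 CPM against 238 and 262 CPM, so over the whole class free RNA and their own Tgfb2 cannot be told apart by this ratio. By cluster the ratio ran from 0.290 to 2.77 untreated and from 0.10 to 1.32 with MSA-2, and 4 of 7 untreated and 3 of 9 MSA-2 Gng11-high clusters were above the fibroblast-like cells of the same library. After thinning, 21.1% and 16.0% of fibroblast-like cells had a Tgfb2 UMI (57.2% and 43.5% without), against 1.64% and 0.529% of Gng11-high and 0.180% of untreated T-like cells. The count was 0 in the 123 MSA-2 T-like cells deep enough to thin, which allows a share of up to 2.44%. A pair of untreated Gng11-high clusters stood out with 34.6 and 45.5 CPM, while the other 5 ranged from 3.13 to 11.7 CPM. Both are shared with the MSA-2 library, where they had 21.5 CPM (-0.69, -1.47 to 0.00) and 16.3 CPM (-1.48, -1.97 to -1.02).

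Tgfb3, the remaining TGF-beta ligand, was lower by 2.79-fold in Gng11-high cells and by 5.49-fold in fibroblast-like cells of the MSA-2 library. Gng11-high cells had 51.9 CPM (50.7 to 53.1) and 18.6 CPM (17.9 to 19.3), a log2 ratio of -1.48 (-1.54 to -1.42). This class held 85.5% and 86.8% of all Tgfb3 UMIs. The level varied among its clusters, from 24.1 to 121 CPM untreated and from 9.58 to 102 CPM with MSA-2, so these ranges overlap. In the cluster with the highest level, which 542 untreated and 58 MSA-2 cells share, the values were 121 and 102 CPM (-0.25, -0.59 to 0.07) and the direction was not settled. The other shared cluster, with 273 and 176 cells, had 63.7 and 41.1 CPM (-0.63, -0.95 to -0.32). Fibroblast-like cells went from 77.2 CPM (67.5 to 87.8) to 14.1 CPM (11.8 to 16.6), a log2 ratio of -2.46 (-2.77 to -2.15), and the share of cells with a UMI after thinning was 7.49% and 1.69% (45.0% and 15.9% without), against 1.62% and 0.813% of T-like cells. Within the fibroblast-like cluster that both libraries share, the ratio was -2.75 (-3.08 to -2.42). Macrophage-like cells stood at 27.1 and 22.9 CPM (-0.25, -0.54 to 0.04). Per 100 UMIs of Gng11 they had 13.5 and 6.71 Tgfb3 UMIs, above the 4.24 and 1.10 of T-like cells. The Tgfb3 of T-like cells, from 37 and 2 UMIs, was close in this ratio to that of Gng11-high cells (3.81 and 0.871). Its part of free RNA was not tested. Fibroblast-like cells had 16.0 and 2.15 on this measure and NK-like cells 4.82 and 2.23. With MSA-2 the fibroblast-like value was thus not above that of NK-like cells, and the exact fold in fibroblast-like cells is uncertain.

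Inhba had 91.8% of its untreated and 90.1% of its MSA-2 UMIs in Gng11-high cells, where it was at 301 CPM (298 to 303) and 395 CPM (392.3 to 398.5). The log2 ratio of 0.40 (0.38 to 0.41) is small beside the spread over clusters of this class, which ran from 178 to 728 CPM untreated and from 175 to 845 CPM with MSA-2. In the pair of clusters that the libraries share, it was -0.13 (-0.26 to -0.00) and 0.12 (0.03 to 0.21). Larger ratios were found in myeloid cells. Ly6c2 monocyte-like cells had 99.3 CPM (84.1 to 117) and 372 CPM (350 to 394), a log2 ratio of 1.90 (1.66 to 2.16). With classes named by cluster in place of the gate, this ratio was -1.52. The class then held 8 untreated cells, of which 1 was among the 403 gated monocyte-like cells. Gated macrophage-like cells had 38.8 CPM (36.2 to 41.6) and 117 CPM (108 to 127), a log2 ratio of 1.60 (1.44 to 1.75). This ratio was 0.63 with classes named by cluster and 0.77 with doublets kept. Of the 3 MSA-2 clusters of the class, the one that also holds most monocyte-like cells of this library was at 365 CPM with 215 cells, and the others were at 49.98 and 79.2 CPM, while the 6 untreated clusters ranged from 19.9 to 38.5 CPM. Neutrophil-like cells of the MSA-2 library were at 160 CPM (149 to 172). Endothelial-like cells showed 26.0 and 109 CPM (2.07, 1.28 to 2.95) from 15 and 103 UMIs.

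In droplet data, free RNA of abundant cells is captured with every cell, so Inhba was also set against Gng11 itself. T-like and NK-like cells, taken here to lack both, had 17.7 and 14.9 Inhba UMIs per 100 Gng11 UMIs untreated. With MSA-2 they had 10.5 and 17.3, the 10.5 from 19 Inhba UMIs. Gng11-high cells had 22.1 untreated and 18.5 with MSA-2, above both classes in each library. The part of free RNA in the T-like and NK-like Inhba levels of 29.98 to 40.1 CPM was not tested. Untreated macrophage-like cells had 19.3 per 100, between T-like and Gng11-high cells. The part of free RNA in their Inhba was likewise not tested. The MSA-2 macrophage-like cells had 34.5, the neutrophil-like cells 33.9 and the monocyte-like cells 54.9 untreated and 113 with MSA-2. Endothelial-like cells were not judged this way because their own Gng11 was high. After thinning, 8.88% of untreated and 26.2% of MSA-2 monocyte-like cells had an Inhba UMI (18.9% and 38.9% without), against 3.78% and 3.25% of T-like cells (10.2% and 13.8% without). In Gng11-high cells the thinned shares were 35.6% and 41.7% (92.4% and 95.4% without).

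**Figure D3:**
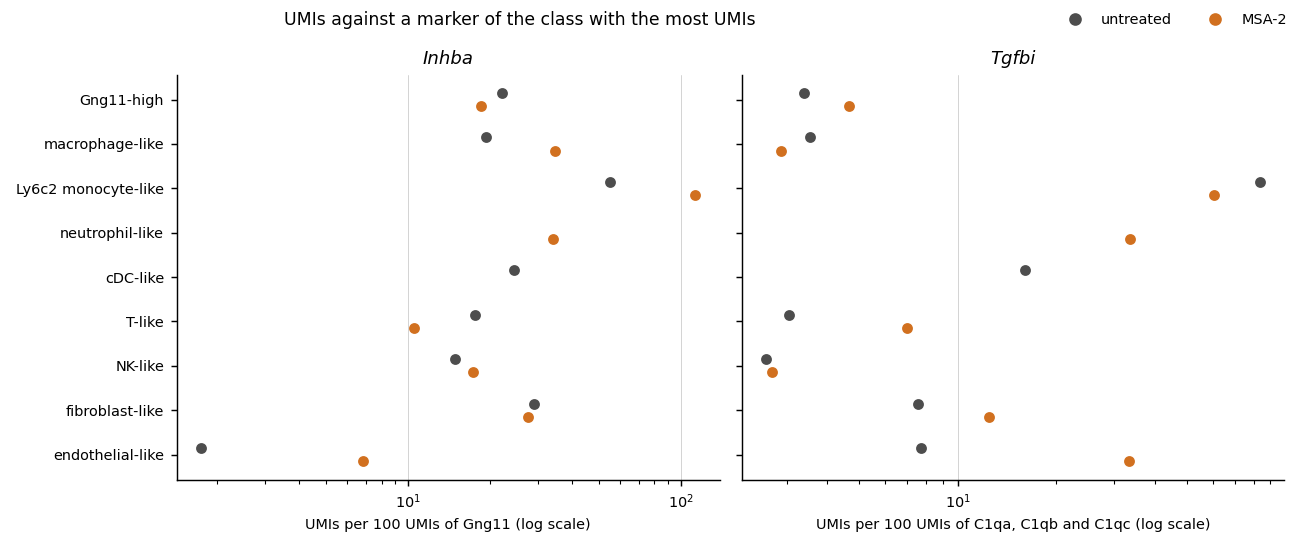
UMIs of Inhba per 100 UMIs of Gng11 (left) and of Tgfbi per 100 UMIs of C1qa, C1qb and C1qc (right) by class on log axes, with grey points for the untreated and orange for the MSA-2 library. Ly6c2 monocyte-like cells lie highest of the named classes for Inhba, at 54.9 and 113, and T-like and NK-like cells between 10.5 and 17.7.

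In fibroblast-like cells the Inhba ratio depended on which cells were taken, and their 28.9 and 27.5 Inhba UMIs per 100 Gng11 UMIs were closer to Gng11-high cells (22.1 and 18.5) than those of monocyte-like cells were. The part of free RNA in their level was not tested. The gate gave 139 and 180 CPM (0.37, 0.22 to 0.53) and a stricter gate a ratio of 1.03. The shared fibroblast-like cluster, which holds 196 of 229 gated cells untreated and 646 of 665 with MSA-2, gave 75.6 and 167 CPM (1.15, 0.93 to 1.37). Of the remaining untreated cells, 14 and 8 lay in a pair of clusters of Gng11-high cells, and their part in the gated level was not tested.

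Tgfbr1, the type I receptor that signals to Smad2 and Smad3, was highest in macrophage-like cells among untreated classes of at least 50 cells, at 225 CPM (218 to 231), and was 3.71-fold lower there in the MSA-2 library, at 60.6 CPM (54.1 to 67.6; log2 ratio -1.89, -2.06 to -1.73). Monocyte-like cells had 110 and 25.0 CPM (-2.14, -2.55 to -1.73), with a ratio of -2.90 when classes were named by cluster. The share of macrophage-like cells with a Tgfbr1 UMI was 24.5% and 8.58% after thinning (55.9% and 21.2% without), and that of T-like cells 4.68% and 4.07%. Macrophages were not uniform. The 6 untreated clusters ranged from 37.3 to 440 CPM and the 3 MSA-2 clusters from 20.9 to 98.3 CPM, and cells gated on resident macrophage markers were below the level of the whole class, at 29.5 and 14.8 CPM in 42 and 114 cells. In the cluster that both libraries share, the values were 37.3 and 20.9 CPM (-0.83, -1.76 to 0.16), so the direction there was not settled, and the class ratio rests on clusters that are mostly of 1 library. Gng11-high cells had 19.5 and 14.4 CPM (-0.44, -0.52 to -0.36), T-like cells 33.1 and 22.1 CPM (-0.58, -1.49 to 0.21) and endothelial-like cells 51.9 and 15.8 CPM (-1.71, -2.71 to -0.77). Macrophage-like cells held 54.3% of Tgfbr1 UMIs in the untreated library and 9.41% in the MSA-2 library.

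Tgfbr2, the type II receptor that binds the ligands, differed less between libraries than Tgfbr1 did in myeloid cells. The levels in T-like cells were 246 CPM (231 to 261) and 254 CPM (216 to 296), a log2 ratio of 0.05 (-0.20 to 0.29), and in NK-like cells 352 and 343 CPM (-0.04, -0.27 to 0.19). CD8 T-like cells had 254 and 265 CPM (0.06, -0.23 to 0.33). Counting error alone allows a change of up to 0.29 in T-like cells on this scale, against -1.80 for Tgfb1 in the same cells. Fibroblast-like cells, the highest class in the untreated library together with NK-like cells, went from 378 to 236 CPM (-0.68, -0.78 to -0.58), and endothelial-like cells from 158 to 85.5 CPM (-0.88, -1.33 to -0.43). Macrophage-like cells stood at 182 and 147 CPM (-0.30, -0.42 to -0.19) and Gng11-high cells at 72.2 and 53.7 CPM (-0.43, -0.47 to -0.39). In the pair of Gng11-high clusters that both libraries share it was 0.08 (-0.25 to 0.40) and 0.11 (-0.11 to 0.32). Monocyte-like cells were higher with MSA-2, at 57.9 and 85.0 CPM (0.55, 0.20 to 0.92). The share of cells with a UMI after thinning was 30.3% and 31.7% in T-like cells and 41.0% and 32.3% in fibroblast-like cells (51.6%, 59.2%, 93.9% and 83.0% without).

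Smad7 encodes the inhibitory Smad that the pathway itself induces, and it was highest in T-like cells of both libraries, at 450 CPM (430 to 470) and 289 CPM (248 to 334). The log2 ratio was -0.64 (-0.87 to -0.42), and -1.35 with cells thinned. NK-like cells had 380 and 198 CPM (-0.94, -1.22 to -0.67), fibroblast-like cells 232 and 124 CPM (-0.90, -1.04 to -0.77), Gng11-high cells 175 and 117 CPM (-0.59, -0.61 to -0.56), endothelial-like cells 156 and 90.8 CPM (-0.78, -1.22 to -0.34) and macrophage-like cells 145 and 96.8 CPM (-0.59, -0.73 to -0.45). Monocyte-like cells were the exception among these classes, with 105 and 109 CPM (0.05, -0.23 to 0.33). In T-like cells the ratio was closer to 0 within the main shared cluster, at 330 and 272 CPM (-0.28, -0.56 to -0.01). The 3 untreated T-like clusters ranged from 330 to 681 CPM. The share of T-like cells with a Smad7 UMI was 48.5% and 22.8% after thinning (70.4% and 58.5% without).

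Tgfbi, which encodes a secreted matrix protein and is named for its induction by TGF-beta, was counted in myeloid cells. Ly6c2 monocyte-like cells had 882 CPM (835 to 930) and 610 CPM (582 to 638), a log2 ratio of -0.53 (-0.63 to -0.43), and macrophage-like cells 555 CPM (545 to 565) and 368 CPM (352 to 385), a log2 ratio of -0.59 (-0.66 to -0.52). Cells gated on resident macrophage markers were at 177 and 93.8 CPM, below the level of the whole class in both libraries. Macrophage-like cells held 73.6% of Tgfbi UMIs untreated and 36.5% with MSA-2, and the share of monocyte-like cells was 8.56% and 34.5%. The share of cells with a UMI after thinning was 68.3% and 49.9% of monocyte-like and 49.3% and 39.4% of macrophage-like cells (83.6%, 68.0%, 79.0% and 64.7% without), against 0.989% and 0.813% of T-like cells. With classes named by cluster the monocyte-like ratio was 0.88. For Gng11-high cells, Tgfbi was set against genes of macrophages. Gng11-high cells had 3.40 and 4.64 Tgfbi UMIs per 100 UMIs of the macrophage genes C1qa, C1qb and C1qc. Macrophage-like cells had 3.55 and 2.89, and T-like cells 3.05 and 7.02, the last from 4 UMIs. The part of free RNA in the 9.50 and 3.87 CPM of Gng11-high cells was not tested. Their ratio of -1.30 is not taken as a result on these cells. Monocyte-like cells had 83.4 and 60.4 on this measure and neutrophil-like cells 33.6 with MSA-2. Fibroblast-like cells had 7.54 and 12.5, and their Tgfbi level was 28.5 and 12.8 CPM (-1.16, -1.57 to -0.75). That ratio was -0.90 with TMM scaling, -0.86 with equal weight per cell and -0.33 after thinning. The macrophage genes C1qa, C1qb and C1qc were at 378 and 102 CPM in fibroblast-like cells. The part of free RNA in the Tgfbi of fibroblast-like cells was not tested.

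**Figure D4:**
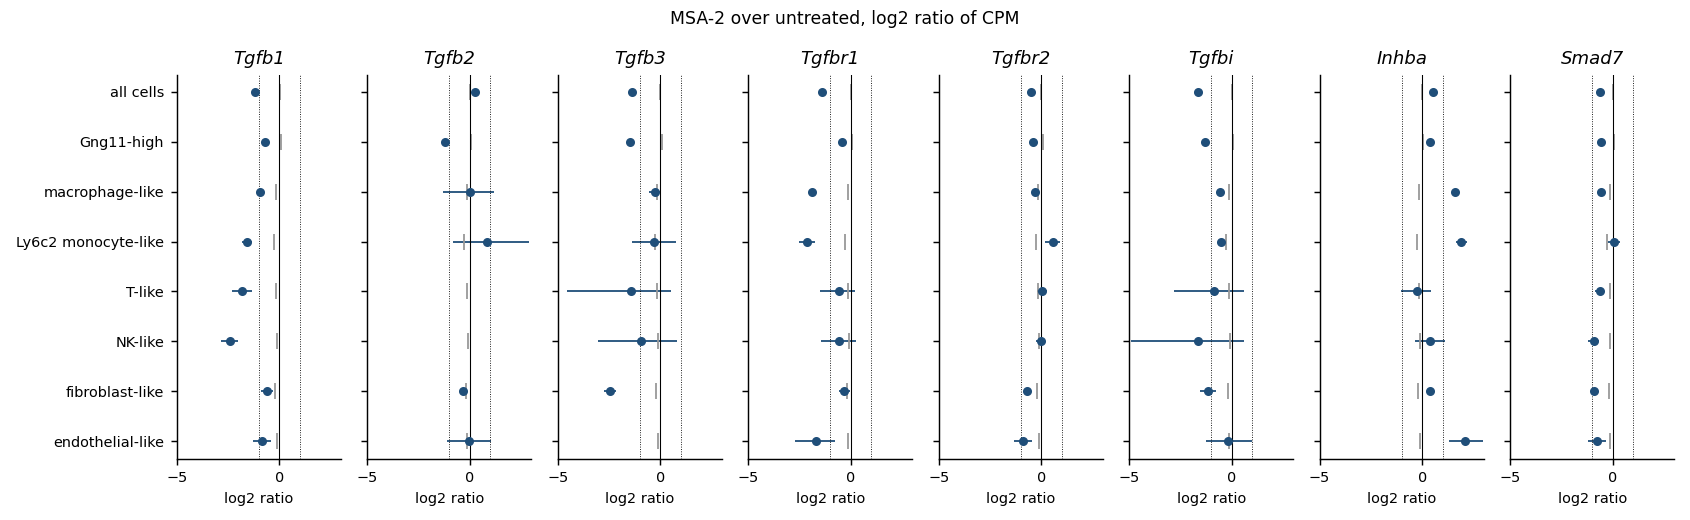
Log2 ratio of CPM, MSA-2 over untreated, for each gene in all cells and in 7 classes. Points with bars are ratios with exact conditional binomial 95% intervals (counting error only), grey ticks the median over all genes of the class, and dotted lines a log2 ratio of 1 either way. The Inhba points of monocyte-like and macrophage-like cells lie at 1.90 and 1.60, to the right of the line, and those of Tgfb1 lie left of 0 in every row.

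Counts of members past a log2 ratio of 1 in either direction were read against all genes with at least 50 UMIs in the class. In Gng11-high cells 3 of 8 members were lower (Tgfb2, Tgfb3 and Tgfbi), against 5.14% of 15962 genes, and 0 were higher, against 9.25%. The part of free RNA in their Tgfbi was not tested, and its ratio is not taken as a result. Macrophage-like cells had 1 of 7 lower (Tgfbr1, against 5.49% of 11500 genes) and 1 higher (Inhba, against 5.86%). The part of free RNA in the untreated Inhba level of this class was not tested. Inhba was no longer past 1 there with classes named by cluster or doublets kept. For Ly6c2 monocyte-like cells the count was 2 of 6 lower (Tgfb1 and Tgfbr1, 9.84% of 7166 genes) and 1 higher (Inhba, 10.6%). T-like cells had 1 of 6 lower (Tgfb1, 8.98% of 8081 genes) and 0 higher (3.85%), and fibroblast-like cells 2 of 8 lower (Tgfb3 and Tgfbi, 6.99% of 10531 genes, Tgfbi not past 1 with 3 of the alternatives) and 0 higher (6.12%), where Inhba was past 1 with the stricter gate and with classes named by cluster. The part of free RNA in the fibroblast-like Tgfbi was not tested. Member medians were -0.65 in Gng11-high, -0.59 in macrophage-like, -0.24 in monocyte-like, -0.61 in T-like and -0.63 in fibroblast-like cells, where the medians of all genes were 0.06, -0.14, -0.27, -0.15 and -0.20.

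Cycling cells, gated by 3 of 10 cell-cycle genes after thinning, numbered 926 untreated and 1245 MSA-2 among Gng11-high cells. Inhba was lower in them than in the other Gng11-high cells of the same library, at 238 against 318 CPM untreated (-0.42, -0.46 to -0.38) and 309 against 424 CPM with MSA-2. Tgfb3 was at 36.1 against 56.2 CPM untreated (-0.64, -0.73 to -0.54) and at 16.1 against 19.4 CPM with MSA-2. Tgfb1 was at 32.4 CPM in cycling and 32.1 CPM in other untreated cells (0.01, -0.09 to 0.12). The ratio of MSA-2 over untreated for Inhba was 0.38 in cycling and 0.42 in other Gng11-high cells.

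**Figure D5:**
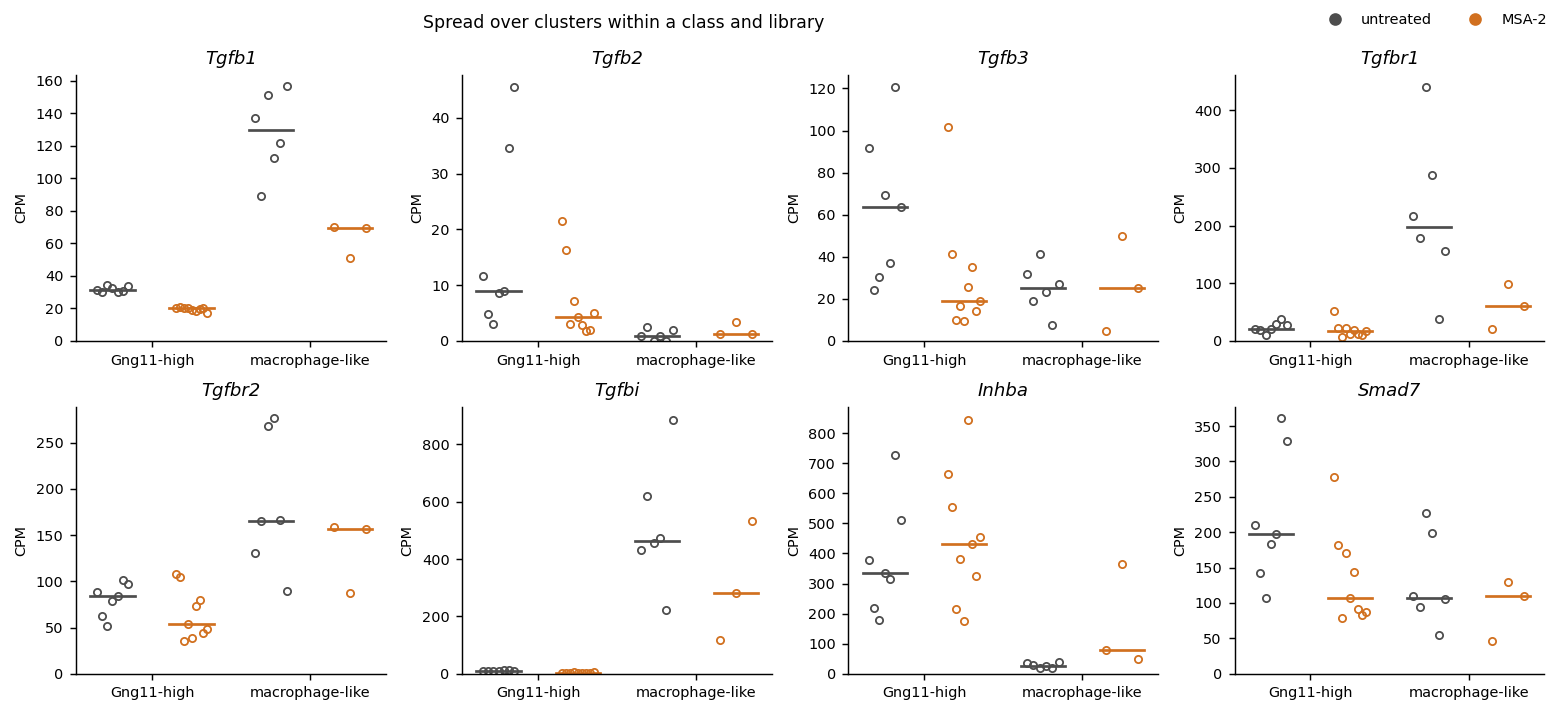
Level of each gene in CPM in every cluster with at least 50 cells of a class and library, for Gng11-high and macrophage-like cells, with lines at the median over clusters. Tgfb1 clusters of the 2 libraries do not overlap in Gng11-high cells (29.8 to 34.1 against 17.3 to 20.9 CPM), while those of Inhba do (178 to 728 against 175 to 845 CPM).

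Other genes of the pathway were taken from lists of 58 genes, counted where both libraries together had at least 10 UMIs and with 1 CPM added to both levels for the counts and medians. The ratios of single genes in parentheses are without it. In fibroblast-like cells 8 of 53 measured genes were lower and 3 higher by a log2 ratio of at least 1, against 6.98% and 6.25% of all genes on this rule. Of the lower ones, 5 were among 11 TGF-beta target genes, whose median was -0.95 against -0.17 for all genes. Acta2, encoding smooth muscle actin, went from 559 to 117 CPM (-2.26), Tagln, another contractile gene, from 806 to 193 CPM (-2.06), Ccn2, a matrix-associated growth factor, from 307 to 89.7 CPM (-1.78) and Cdkn2b, a cell-cycle inhibitor, from 52.0 to 18.0 CPM (-1.53). Among the higher ones, the BMP antagonist gene Grem1 was at 12.4 and 33.3 CPM (1.42) and the activin receptor gene Acvr1b at 9.39 and 21.9 CPM (1.22). The transducer Smad3 was at 33.6 and 11.5 CPM (-1.54). Outside fibroblast-like cells the median of the target genes was -0.63 in T-like cells (all genes -0.15) and -0.30 in Gng11-high cells (0.03). It was -0.08 in macrophage-like cells (all genes -0.11) and 0.08 in monocyte-like cells (-0.22).

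In T-like cells 9 of 38 pathway genes were lower and 3 higher, against 11.8% and 5.92% of all genes, and the list median was -0.47 against -0.15. This median was -0.22 with 10 CPM added or at least 50 UMIs. The target and feedback gene Pmepa1 stood at 223 and 56.8 CPM (-1.97), Smad3 at 42.9 and 12.6 CPM (-1.76) and the Smad co-repressor Ski at 166 and 60.0 CPM (-1.47). The 3 higher genes were the ligand gene Gdf11 at 10.2 and 28.4 CPM (1.48), Thbs1, whose product can activate latent TGF-beta, at 7.88 and 23.7 CPM (1.59), and Lox at 1.85 and 9.47 CPM (2.35), from 18, 15 and 6 MSA-2 UMIs. Macrophage-like cells had 4 of 49 lower and 4 higher (3.26% and 5.22% of all genes). Pmepa1 was also lower in them, at 398 and 187 CPM (-1.09), as were Smad3 (36.4 and 16.6 CPM, -1.14) and Smad6, an inhibitory Smad (8.39 and 3.62 CPM, -1.21). Furin, a protease that cleaves TGF-beta precursors, was at 144 and 279 CPM (0.96). The 4 past the limit were Gdf11 at 1.21 and 4.76 CPM, Lox at 1.25 and 6.67 CPM, Grem1 at 0.145 and 3.62 CPM and the integrin gene Itgb6 at 0.145 and 1.52 CPM, each from 35 or fewer UMIs in either library. Gng11-high cells of the MSA-2 library had 18.4 CPM of Grem1, 7.31 CPM of Lox, 3.21 CPM of Itgb6 and 9.18 CPM of Gdf11, fibroblast-like cells had 788 CPM of Lox, and the part of free RNA in the macrophage-like and T-like values of these genes was not tested. In monocyte-like cells 2 of 41 were lower and 6 higher (10.3% and 11.5%), and Fst, which encodes the activin-binding protein follistatin, was at 1.97 and 10.7 CPM there (2.43), from few UMIs.

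Gng11-high cells had 3 of 55 pathway genes lower and 3 higher, against 1.5% and 2.49% of all genes, with a list median of -0.05 against 0.03. Grem1, which encodes a secreted BMP antagonist, was at 0.534 and 18.4 CPM (5.11) and the ligand gene Bmp2 at 3.75 and 16.9 CPM (2.17). Lox, which encodes a collagen cross-linking enzyme, was at 2.33 and 7.31 CPM (1.65). Macrophage-like and T-like cells had a like Lox level with MSA-2 (6.67 and 9.47 CPM). The part of free RNA in the Lox value of Gng11-high cells was not tested. Ccn2 was at 4.34 and 1.014 CPM (-2.10), Bambi, a decoy receptor, at 9.11 and 3.67 CPM (-1.31) and the integrin gene Itgb8, whose product activates latent TGF-beta, at 4.65 and 1.82 CPM (-1.35). The co-receptor gene Tgfbr3 was at 122 and 240 CPM (0.98) and Pmepa1 at 487 and 302 CPM (-0.69).

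For each member the 3 genes with the most similar pattern were found over 17 sums of a class and library, as Pearson r of log2(CPM + 10). These sums share libraries and are not independent, and r is given as a description. Tgfb2 was most like Adamts5 (0.99), Bicc1 (0.98) and Fbln2 (0.98), Tgfbi like Sirpb1c (0.97), Fcgr2b (0.97) and Lyz2 (0.96), and Tgfb1 like Lcor (0.94), Kmt2c and Cerk. Smad7 was most like Saraf (0.93), Lonp2 and Smyd3, Tgfbr2 like Chst12 (0.91), Nucb1 and Ugcg, Inhba like Slc25a37 (0.89), Ptges and Fosl1, Tgfb3 like Uap1l1 (0.87), Pdgfc and Timp2, and Tgfbr1 like H2-Ab1 (0.85), Fam174a and Scamp2. Between members r was highest for Tgfbr2 with Smad7 (0.75) and lowest for Tgfb1 with Inhba (-0.66).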

How the data were processed

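Single-cell RNA was captured with the 10x 3′ v3.1 kit. The deposited matrices hold unnormalized UMI counts, made, per the submitters' processing notes, with Cell Ranger 7.0.0, Seurat 4.3.0 and mm10. The matrix headers name Cell Ranger 7.0.1, and the methods of the study name other versions of both Cell Ranger and Seurat. The intron setting is not given in the sources used here. The cell numbers stated by the study equal the barcode totals. Barcodes under 500 genes or above 20% mitochondrial UMIs were dropped, Scrublet doublets were removed (5.02% untreated, 4.08% MSA-2) and cells passing gates of more than 1 class were left unassigned. The libraries share 53 barcode sequences. Counts of a gene were summed per class and library and divided by the summed UMIs. Intervals are exact Poisson for levels, exact conditional binomial for ratios and Clopper-Pearson for shares, at 95%. They do not cover variation between mice or libraries. Ratios are given from 10 UMIs in both libraries together, and a count of 0 was read as allowing 3. The text could name the members, any gene of the pathway lists and the 3 genes most similar to each member, and the pathway genes given with values were picked after these were seen. Clusters came from both libraries together, without correction for library. The members and lists were chosen with earlier results of these data known, and the gate thresholds, and the markers dropped because classes share them (Vcan, Fn1, Cox6a2, Cd74, H2-Aa, Thy1 and Fscn1), were set after marker levels were seen. The script was tested on simulated data. Alternatives were no cell filter, a stricter filter (1000 genes, 10% mitochondrial UMIs), a stricter gate, doublets kept, classes from clusters, TMM scaling, equal weight per cell, thinning to 1500 UMIs and, for lists, 50 UMIs or 10 CPM added. Tools were Python 3.11.15, numpy 2.4.6, scipy 1.17.1, pandas 2.3.3, scanpy 1.11.5, matplotlib 3.10.9 and R 4.3.3 with edgeR 4.0.16 for TMM factors only.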

Additional observations from a re-analysis of the deposited data

Results flagged for a closer look

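The log2 ratio of Tgfbr2, MSA-2 over untreated, was 0.55 (0.20 to 0.92) in Ly6c2 monocyte-like cells and -0.88 (-1.33 to -0.43) in endothelial-like cells. The classes moved in opposite directions, with counting intervals on opposite sides of 0. The difference between the classes was not tested, since there is 1 library per condition. Monocyte-like cells of the libraries lie in different clusters, while the endothelial-like cells share 1 cluster.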

How the results depend on the processing

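No paired analysis was possible because each condition has 1 library, and for the same reason no replicate could be left out. Of the alternative values for the main ratios and list medians, 88 stayed within the counting interval (list medians within 0.1), 28 moved further, and of these only the monocyte-like list median changed sign. In Gng11-high cells Tgfb3 was -1.56 with TMM scaling and -1.30 thinned, Inhba 0.32, 0.50 and 0.49 with TMM, equal weight per cell and thinning, and Smad7 -0.66, -0.62 and -0.49 with the same and -0.63 with the stricter gate. In macrophage-like cells thinning gave -0.70 for Tgfb1 and -1.68 for Tgfbr1. Classes from clusters gave -2.09 for Tgfbr1, -0.14 for Tgfbr2 and -0.49 for Tgfbi, and Tgfbi was -0.47 with doublets kept or thinned and -0.46 with equal weight. Fibroblast-like Tgfb2 was -0.70 by clusters, -0.52 with the stricter gate and -0.064 with TMM. Over all cells Tgfbi was -1.70 and Inhba 0.56 with the stricter filter, and Inhba 0.52 with TMM. List medians were -0.65 (fibroblast-like targets) and -0.24 (T-like targets) with 10 CPM added, -0.22 for all T-like pathway genes with 10 CPM added or at least 50 UMIs, and -0.10 for the monocyte-like list at 50 UMIs, against 0.04 at 10 UMIs. Macrophage-like Inhba was 0.63 by clusters and 0.77 with doublets kept, fibroblast-like Tgfbi -0.33 and T-like Smad7 -1.35 thinned, monocyte-like Tgfbr1 -2.90 by clusters, and fibroblast-like Inhba 1.21 by clusters and 1.03 with the stricter gate. Among the other ratios, 37 moved outside their counting interval and 203 did not, a sign change inside an interval that spans 0 (such as T-like Inhba or monocyte-like Smad7) counted among the latter. A further 3 with intervals on 1 side of 0 changed direction. With classes from clusters, monocyte-like Tgfbi was 0.88 and Inhba -1.52, where the class holds 8 untreated cells, 1 of them in the gated class. Thinned fibroblast-like Tgfbr1 was 0.67. The cause was not tested. TMM shifted all ratios by 0.26 in fibroblast-like and 0.28 in monocyte-like cells.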
